A study of Mus musculus with 4 samples.

Results

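The transcripts described here mark the 2-cell-like state of mouse embryonic stem cells: Zscan4c, Zscan4d, Zscan4f, Tcstv1, Tcstv3, Zfp352, Tdpoz1, Tdpoz2, Tdpoz3 and Dppa3. Their probes were found through the transcript accessions in the scanner files, which were looked up, leaving versions aside, in a table of RefSeq genes (assembly GRCm38.p6). All 10 genes are in that table. Of these, 6 genes had a probe, with 12 probes among the 41174 probes of the array. Zscan4d, Zscan4f, Tdpoz2 and Tdpoz3 had no probe under their RefSeq transcripts and have no value here.

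A small and changing fraction of cultured mouse embryonic stem cells enters a state that resembles the blastomeres of the 2-cell embryo, in which the zygotic genome is first transcribed. Such cells transcribe the Zscan4 genes, the Tcstv genes and the Tdpoz genes together with an endogenous retrovirus, and they do so after activation by the double-homeobox factor DUX. Most cells of a culture are outside this state at any moment. In an extract of whole cultures, fewer cells of this kind and less RNA per cell cannot be told apart.

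The cells were mouse embryonic stem cells in which FBL expression depends on tetracycline (Tc). FBL is fibrillarin, the nucleolar methyltransferase that modifies ribosomal RNA guided by small nucleolar RNAs. Tc was present at 1000 ng/mL for the 2 controls, which express FBL, and absent for the 2 FBL-knock down samples, for 2 days in each case. All 4 cultures grew on gelatin with leukaemia inhibitory factor (LIF). Groups therefore differ in Tc as well as in FBL, and the share of Tc itself in any change cannot be told apart. Whether the cells are 1 clone, and whether the samples of a group were separate cultures, was not stated in the sources used here, so the p-values cover the spread of these samples alone, and that spread may be technical.

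Each sample was hybridised to 1 Agilent array in 1 colour. Values are log2 signals relative to the 75th percentile of each array, as in the deposited value table, and a difference is knock-down minus control. Feature Extraction marks a spot as well above background or not, and 59.5% to 64.1% of probes were well above background per array. Knock-down 2 lay on slide 2 and the other three arrays on slide 1. Fbl itself read 8.63 and 8.12 with FBL, then 5.98 and 5.94 after knock-down, a fall of log2 −2.41 ± 0.25 (SE, n = 2 per group, limma adjusted p = 4.44e-04). The stem cell markers Pou5f1, Sox2, Nanog, Zfp42, Esrrb, Tdgf1, Utf1 and Klf4 were well above background on all 4 arrays. Of their 9 probes limma called 0. An unadjusted p under 0.05 was reached by 3 of them, all lower, and by 5029 of all 25078 tested probes in either direction.

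The array named only Zscan4c of the Zscan4 copies, and the likeness of the copies is shown here for their promoters alone. Promoter windows lie outside the transcript, so they do not show whether a Zscan4c probe also binds RNA of Zscan4d or Zscan4f. RefSeq promoter windows (assembly GRCm38.p6) were given for 5 of the 10 genes: Zscan4c, Zscan4d, Zscan4f, Zfp352 and Tdpoz1. The 250 bases before the transcript start are shown for the Zscan4 copies, and for Zfp352 as the member whose probes were nowhere well above background. Capitals mark each match, on either strand, to TATAAA, the core of a TATA box, or to TAATCC, the core that Otx-type homeodomains recognise.
Zscan4c promoter (chr7:11005495-11005744, + strand): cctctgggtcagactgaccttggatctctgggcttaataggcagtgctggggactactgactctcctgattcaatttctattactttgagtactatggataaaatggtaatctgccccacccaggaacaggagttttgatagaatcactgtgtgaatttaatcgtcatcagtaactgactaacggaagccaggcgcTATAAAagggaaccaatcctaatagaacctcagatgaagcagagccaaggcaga
Zscan4d promoter (chr7:11166149-11166398, - strand): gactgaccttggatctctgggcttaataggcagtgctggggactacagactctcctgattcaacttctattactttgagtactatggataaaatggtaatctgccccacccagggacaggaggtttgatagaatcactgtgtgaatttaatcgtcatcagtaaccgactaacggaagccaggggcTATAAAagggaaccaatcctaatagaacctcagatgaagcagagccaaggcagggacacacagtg
Zscan4f promoter (chr7:11397665-11397914, + strand): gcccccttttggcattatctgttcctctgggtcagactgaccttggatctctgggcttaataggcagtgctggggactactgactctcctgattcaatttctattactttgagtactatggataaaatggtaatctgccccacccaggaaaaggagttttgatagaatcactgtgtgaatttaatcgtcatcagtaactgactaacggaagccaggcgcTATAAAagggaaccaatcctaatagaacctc
Zfp352 promoter (chr4:90218570-90218819, + strand): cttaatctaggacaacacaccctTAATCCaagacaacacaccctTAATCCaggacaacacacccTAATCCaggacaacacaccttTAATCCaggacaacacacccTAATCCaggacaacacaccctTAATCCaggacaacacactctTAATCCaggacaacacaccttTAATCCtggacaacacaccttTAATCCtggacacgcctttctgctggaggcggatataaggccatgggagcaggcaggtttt

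Over aligned bases, gaps aside, the window of Zscan4c was 99.6% identical to that of Zscan4f, with 1 mismatch, and 97.5% identical to that of Zscan4d, with 6. TATAAA occurred once in each Zscan4 window, beginning 54, 65 and 31 bases before the annotated start of Zscan4c, Zscan4d and Zscan4f. It occurred in 12.4% of all 32851 RefSeq promoter windows of this length, and in neither the Zfp352 nor the Tdpoz1 window. TAATCC occurred 9 times in the Zfp352 window, at nearly even spacing, once in the Tdpoz1 window and in no Zscan4 window. Of all windows 6.25% held it at least once and 0.0244% held it 3 or more times. These matches describe the letters and are not binding sites measured here.

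Tests covered the 25078 probes that passed the background mark in both samples of the controls, of the knock-down, or of both groups. Of the 12 probes 7 were tested, from 5 genes, and 5 were not. Of the 7, limma called 2 as risen, both of Tcstv1, and 0 fell, with 0 lower at an unadjusted p under 0.05. Of all tested probes 3.73% rose and 2.47% fell. An unadjusted p under 0.05, in either direction, was reached by 5029 of the 25078. Both knock-down values lay above both control values for 5 of the 7 tested probes, namely the 3 of Tcstv1, 1 of Tcstv3 and 1 of Zscan4c, against 20.8% of all tested probes. The groups did not overlap in either direction for those same 5, against 51.4% of all tested probes. The median change of the 7 was 0.78, against −0.06 over all tested probes. Tcstv1 A_51_P481768 and Tdpoz1 A_52_P378157 entered the test only through their knock-down arrays. The former, being tested because it was high there, had to differ, and it is 1 of the 2 calls and 1 of the 5. These counts and the median therefore describe the probes with a signal, not the 10 genes, and support nothing about them. With 2 samples per group an exact permutation test cannot go below p = 0.333 (two-sided), so calls rest on limma, which borrows the spread from all probes.

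**Figure D1:**
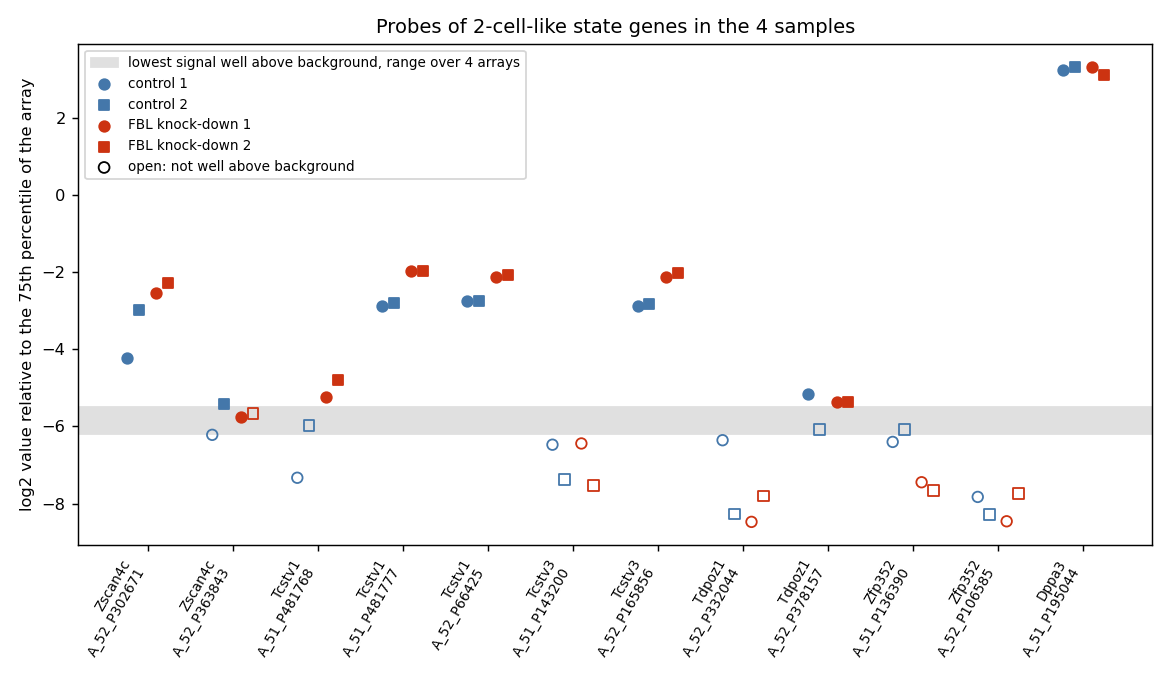
Log2 value of each of the 12 probes relative to the 75th percentile of its array, by sample (blue controls, red FBL-knock down; filled where the spot was well above background). The tested Tcstv1, Tcstv3 and Zscan4c probes sit higher in both knock-down samples, the Zfp352 probes lie at or under the background band on all arrays, and Dppa3 lies between 3.12 and 3.33 in all 4 samples.

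Tcstv1 encodes a small protein found in 2-cell embryos and has been linked to telomere maintenance in stem cells. Probe A_51_P481777 read −2.88 and −2.79 with FBL, then −1.98 and −1.98 after knock-down. Samples of a group lay within 0.09 of each other and the groups were apart. This probe rose 1.81-fold (log2 change 0.86 ± 0.22, limma adjusted p = 0.0494), which was the smallest change among all rising calls. The call lay at the threshold, and it was lost with the processed signal of the scanner files (adjusted p = 0.0524), with quantile normalization (0.0545), under normexp (change 0.54, adjusted p = 0.206), with no filter (0.370) and in both fits without 1 knock-down sample (0.520 and 0.689).

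The second Tcstv1 probe, A_52_P66425, read −2.75 and −2.76 with FBL, then −2.14 and −2.08 after knock-down. The values again fell into separate groups, with the controls nearly equal. Its log2 change was 0.65 ± 0.22, with a 95% interval of 0.15 to 1.14, and it did not pass (limma adjusted p = 0.130).

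The third Tcstv1 probe, A_51_P481768, was not well above background in either control (−7.33 and −5.97) and was so in both knock-down samples (−5.23 and −4.79). Its rise was 1.66-fold once each control value under the dimmest signal well above background on its array was raised to that signal. This floored rise is not a lower limit, because control 2 entered it as read and normexp gave a smaller change. The limma fit was made on the values as read (change 1.64, adjusted p = 0.0343) and does not test the floored rise. The controls lay 1.36 apart, more than the floored rise of 0.73 on the log2 scale. Without control 1 the fitted change fell from 1.64 to 0.96 (adjusted p = 0.0518) and under normexp to 0.47 (0.314). It passed in 6 of 13 alternatives.

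Tcstv3 is a close relative of Tcstv1 with the same embryonic pattern. Its probe A_52_P165856 read −2.89 and −2.83 with FBL, then −2.12 and −2.03 after knock-down. The groups were apart by more than the spread within either. The log2 change was 0.78 ± 0.22 (95% interval 0.29 to 1.28) and did not pass (limma adjusted p = 0.0699), although it passed in 5 of 15 alternatives, in none of which the scaling was changed. Under normexp it was 0.29. The other Tcstv3 probe, A_51_P143200, was well above background on none of the 4 arrays, with values from −7.53 to −6.44, and was not tested. The probes named for Tcstv1 and Tcstv3 target related transcripts, and whether 1 of them also binds the other's RNA was not tested.

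Zscan4c encodes a zinc finger and SCAN domain protein that is active in the 2-cell embryo and lengthens telomeres in stem cells. Its probe A_52_P302671 read −4.23 and −2.97 with FBL, then −2.53 and −2.28 after knock-down, well above background on all arrays. Both knock-down values exceeded both controls, but the controls lay 1.26 apart, more than the fitted change. The log2 change was 1.20 ± 0.36 (95% interval 0.39 to 2.00) and did not pass (limma adjusted p = 0.0876). It was 0.57 without control 1 and 1.82 without control 2. It passed in 6 of 15 alternatives, among them normexp (0.93, adjusted p = 0.0034) and the fit on probes well above background on all arrays (adjusted p = 0.0203).

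The second Zscan4c probe, A_52_P363843, was well above background in 1 control and 1 knock-down sample. It read −6.22 and −5.41 with FBL, then −5.76 and −5.67 after knock-down. Both knock-down values lay between the controls, and the probe was not tested. Its values give no order of the groups at a level that near the background. Whether either Zscan4c probe also binds RNA of the other Zscan4 copies was not tested.

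**Figure D2:**
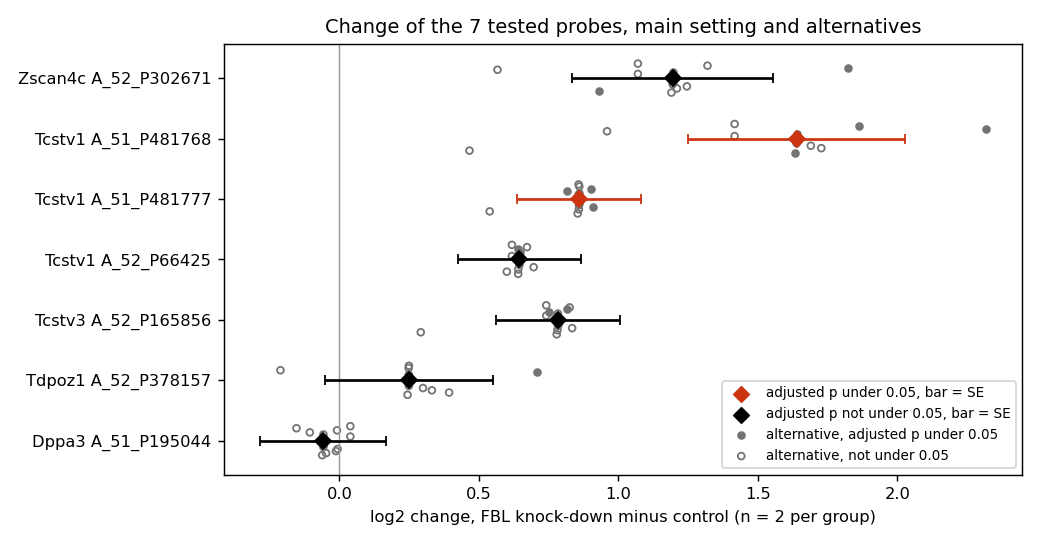
Log2 change of the 7 tested probes, knock-down minus control (diamond with SE; red where the adjusted p was under 0.05), with the change under each alternative as small circles, filled where it passed. The Tcstv1, Tcstv3 and Zscan4c circles all lie above 0, those of Tdpoz1 lie on both sides and those of Dppa3 lie between −0.15 and 0.04.

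The Tdpoz genes encode proteins with TRAF and POZ domains, which are found in adaptors of ubiquitin ligases, and they are transcribed in early embryos. Tdpoz1 probe A_52_P378157 read −5.15 and −6.07 with FBL, then −5.36 and −5.37 after knock-down, and control 2 alone did not reach the background mark. Values after knock-down were nearly equal and lay between the controls. The log2 change was 0.25 ± 0.30 (95% interval −0.42 to 0.92, limma adjusted p = 0.712). It was 0.71 without control 1 (adjusted p = 0.0337) and turned to −0.21 without control 2. The other Tdpoz1 probe, A_52_P332044, was well above background on none of the 4 arrays, with values from −8.47 to −6.36.

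Zfp352 encodes a zinc finger protein whose transcript appears at zygotic genome activation. Neither of its probes was well above background on any array. A_51_P136390 read −6.40 and −6.08 with FBL, then −7.45 and −7.66 after knock-down. A_52_P106585 read from −8.46 to −7.73 across the 4 samples. The first probe was lower in both knock-down samples, but at this signal the order of values is not a measured difference, and both probes give only an upper bound on Zfp352.

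Dppa3, also called Stella, is a maternal factor that protects the maternal genome of the zygote from demethylation. It is transcribed in oocytes, in 2-cell embryos and primordial germ cells, and also by many naive stem cells outside the 2-cell-like state. Probe A_51_P195044 read 3.23 and 3.33 with FBL, then 3.32 and 3.12 after knock-down, and it was the only member above the 75th percentile of the arrays. The groups overlapped. The log2 change was −0.06 ± 0.23, and its 95% interval ran from −0.56 to 0.45 (limma adjusted p = 0.924). Its neighbours in the Nanog gene cluster on chromosome 6 were Gdf3, a growth factor of the TGF-beta family, with a change of 0.23 (adjusted p = 0.665), and Nanog, the pluripotency factor, with −0.82 (adjusted p = 0.0605).

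**Figure D3:**
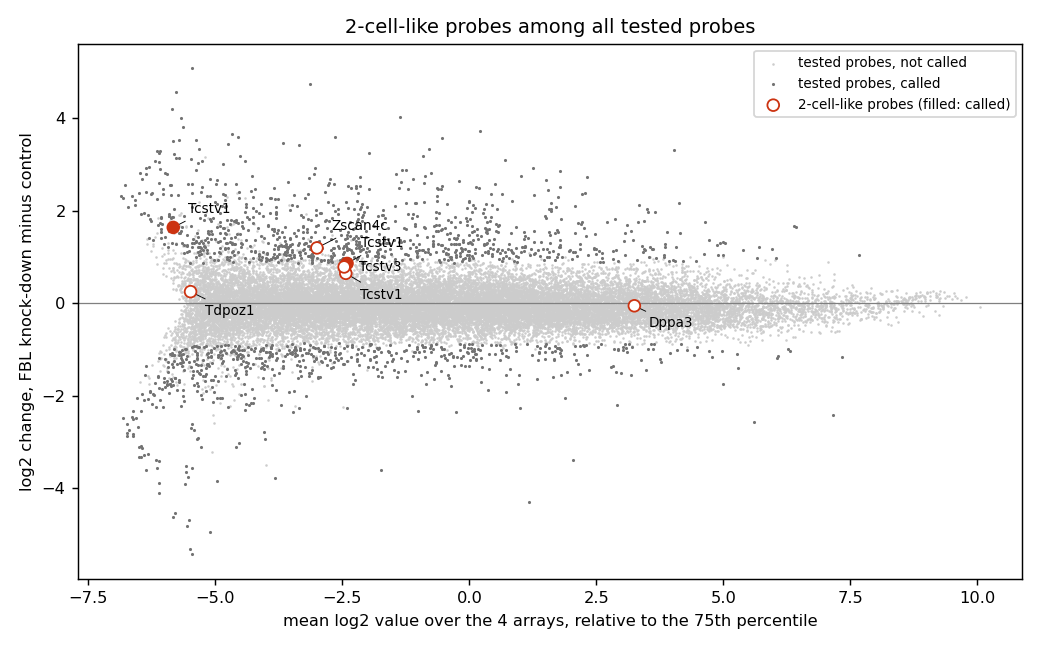
Log2 change against mean log2 value for the 25078 tested probes (light grey not called, dark grey called), with the 7 probes of 2-cell-like genes circled in red and filled where called. Among them, the brighter Tcstv1, Tcstv3 and Zscan4c probes have changes of 0.65 to 1.20, the dim Tcstv1 probe lies at 1.64 and Dppa3 at −0.06.

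Other genes of the 2-cell-like program were read from a list of 40 symbols, of which 36 matched the RefSeq table, 11 had a probe and 5 were tested, with 7 probes. No probe was named for the gene of DUX. None of the 7 probes rose in limma and 1 fell, while 3 were higher and 1 lower at an unadjusted p under 0.05. Usp17la, a deubiquitinase gene, read −4.17 and −4.29 with FBL, then −3.45 and −3.34 after knock-down. Its groups were apart, with a log2 change of 0.83 ± 0.22 and limma adjusted p = 0.0583. Sp110, a nuclear body gene, had a change of 0.70 (adjusted p = 0.158). The 2 brightest genes were Gm5662 and AF067063. Gm5662 gave 1.23 ± 0.40 at its dimmer probe, not well above background in control 1 (adjusted p = 0.114), and −0.30 ± 0.27 at its brighter one (0.608). AF067063 gave 0.09 ± 0.26 at its brighter probe and −0.33 ± 0.23 at its dimmer one, not well above background in knock-down 2 (adjusted p = 0.901 and 0.486), both with an interval that includes 0. Rfpl4, an oocyte RING finger gene, was well above background in both controls and in neither knock-down sample. It thus entered the test only through the controls, which favours a fall. Its fall was 1.59-fold once each knock-down value under the dimmest signal well above background on its array was raised to that signal. This floored fall is not a lower limit, and limma was fitted to the values as read (−1.50, adjusted p = 0.0179). Under normexp the Rfpl4 change was 0.10 (adjusted p = 0.902), and the call was also lost with quantile normalization, no filter, trend, without control 1 and without knock-down 1. Usp17lc was well above background in knock-down 2 alone (−4.18, against −8.45 to −7.71 in the other samples) and was not tested. The reverse held for Pramel6, well above background in control 2 alone and also not tested. It read −3.45 there, against −7.80 in control 1 and a knock-down mean of −8.05. The list's median was 0.09.

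Regulators reported to restrain the 2-cell-like state were well represented, with 34 of 37 genes tested at 55 probes. None rose in limma and 1 gene fell, with 0 probes higher and 9 lower at an unadjusted p under 0.05, and the median was −0.20. Over all 25078 tested probes 5029 reached such a p, counted in both directions together. Whether 9 lower probes of 55 exceed the share of lower ones among all probes was not tested. Myc, the growth-promoting transcription factor, read 2.28 and 2.23 with FBL, then 1.36 and 1.20 after knock-down at its brightest probe. It fell at 2 of its 3 probes, with changes of −0.98 and −1.01 (limma adjusted p = 0.0297 and 0.0274), and the third had −0.73. Both calls were lost with no filter and in each fit without 1 knock-down sample, where the changes were −1.11 to −0.90. Trim28, the corepressor of retroviral silencing, had −0.10 (adjusted p = 0.882). Nucleolin (Ncl), which acts with LINE1 RNA and TRIM28 to keep Dux silent, had −0.40 at its brightest probe (adjusted p = 0.376). Its other probes had −0.35, −0.22 and 0.19, none of them called. Among the rest, no gene of chromatin assembly (Chaf1a, Chaf1b), histone H3 lysine 9 methylation (Setdb1, Ehmt1, Ehmt2, Suv39h1) or the PRC1.6 complex (Pcgf6, Mga, Max, L3mbtl2, E2f6) passed.

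Of regulators reported to promote the state, 8 of 13 genes were tested at 10 probes. Klf5 and Tbx3, both transcription factors of the naive state, fell by 0.89 on the log2 scale each (limma adjusted p = 0.0473 and 0.0447), and 0 probes rose, with 1 higher at an unadjusted p under 0.05. Klf5 averaged 4.02 ± 0.036 (SD, n = 2) in the controls and 3.13 ± 0.18 after knock-down. Tbx3 averaged 3.60 ± 0.10 and 2.71 ± 0.054. Both calls were lost with quantile normalization, with the percentile over bright probes, with no filter and in each fit without 1 knock-down sample, where the changes were −1.02 to −0.77. Dppa2 and Dppa4, partner DNA-binding proteins upstream of Dux, had −0.18 and −0.32 (adjusted p = 0.723 and 0.467). Nelfa, a subunit of the negative elongation factor and the brightest of the list with Klf5, had 0.19 and 0.17 at its probes (adjusted p = 0.713 and 0.762). Trp53, the gene of p53, had 0.74 and 0.15 at its 2 probes (adjusted p = 0.142 and 0.803). The oocyte homeobox genes Obox1, Obox3 and Obox5 were well above background on no array. The list's median was −0.25.

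Germ line and maternal genes, the other settings in which Dppa3 is known, were compared in the same way. Of 21 germ line genes 16 were tested at 19 probes, and 1 rose. Hormad1, a meiotic chromosome axis gene, read −3.74 and −3.11 with FBL, then −2.09 and −1.98 after knock-down, a log2 change of 1.39 ± 0.26 (limma adjusted p = 0.0117). It lost its call within slide 1 (1.34, adjusted p = 0.0885) and with no filter, and its other probe was well above background on no array. The brightest germ line genes, Dppa5a (0.24 and −0.08) and Ifitm3 (0.05), did not pass, and the list's median was 0.20. Of 10 tested oocyte and maternal genes limma called 0 of 11 probes, with 1 lower at an unadjusted p under 0.05. Khdc3 (0.37) and Ooep (−0.35), subunits of the subcortical maternal complex, were the brightest, and the median was −0.34. Against the 6.20% of all tested probes that were called in either direction, 5.26% of germ line, 3.64% of restraining, 20.0% of promoting and 14.3% of other 2-cell-like probes were called, and 0 of the maternal probes. These shares rest on 2 probes or fewer in each list. The 14.3% is the Rfpl4 call alone, and that probe entered the test only through the controls.

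**Figure D4:**
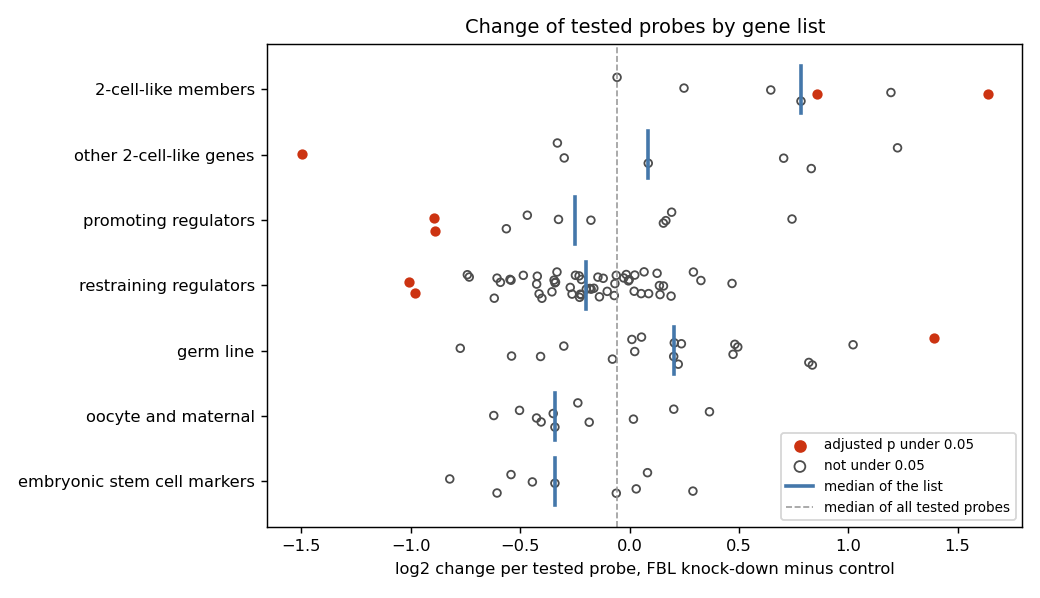
Log2 change of each tested probe by gene list (filled where the adjusted p was under 0.05), with the list's median as a blue bar and the median of all tested probes as a dashed line at −0.06. The 2-cell-like members have their median at 0.78, the other 2-cell-like genes at 0.09 and the restraining regulators at −0.20; the trophectoderm list, not drawn, has 0.74.

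Markers of other cell types were read in the same way, with few calls in any list. Trophectoderm markers had a summed signal, over 6 probes and in units of the array's 75th percentile, of 0.281 to 0.328 in the controls and 0.528 to 0.543 in the knock-down samples. Of these 6 genes 1 rose (Krt7, 1.63), 1 fell (Elf5) and 4 did not pass, with 4 of the 6 probes higher and 1 lower at an unadjusted p under 0.05. The list's median change was 0.74, close to the 0.78 of the tested 2-cell-like probes. Elf5 was not well above background in knock-down 2 and entered the test only through the controls, so its fitted change of −1.63 rests on a dim value there. It passed in 6 of 14 alternatives, was 0.12 under normexp, and lost its call without control 1 (−1.75), without control 2 (−1.51) and without knock-down 2 (−1.03). The summed signal of 6 primitive endoderm genes was 0.349 to 0.453 in the controls and 0.3002 to 0.305 in the knock-down samples. Sox7 fell (−2.15, and −0.21 under normexp) and Sox17 rose at 1 probe (fitted change 1.86, and 0.37 under normexp). With its dim control values raised as for the dim Tcstv1 probe, the Sox17 rise was 1.52-fold, which is not a lower limit. That Sox17 probe entered the test only through its knock-down arrays, which favours a rise. In the mesoderm list Kdr rose (1.19), and that list's summed signal was 0.394 to 0.503 in the controls and 0.461 to 0.480 in the knock-down samples. Thy1 fell at 1 of its 2 probes among fibroblast markers (−1.35). The fibroblast sum was 4.52 to 6.99 in the controls and 3.33 to 3.62 in the knock-down samples, but on every array most of it came from the other Thy1 probe, which was not called (−0.75, adjusted p = 0.140), so it does not describe the list, and the fibroblast genes Dcn, Postn and Col3a1 were well above background on no array. The Thy1 call was lost under normexp (−0.71) and within slide 1 (−1.29), and the Kdr call in each fit without 1 knock-down sample (1.15 and 1.23). Neural markers had 0 calls in limma, with 1 probe lower at an unadjusted p under 0.05, and a sum of 7.54 to 11.9 in the controls and 7.71 to 8.98 in the knock-down samples. The neural and mesoderm sums overlapped between the groups. Median changes were 0.04 for primitive endoderm, −0.40 for mesoderm, −0.24 for fibroblast and −0.10 for neural markers. Beside the 6.20% of all tested probes, 33.3% of trophectoderm, 28.6% of primitive endoderm, 25.0% of fibroblast and 20.0% of mesoderm probes were called, each share resting on 1 or 2 probes. Whether such cells bear on the Tcstv and Zscan4c values was not tested.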

How the data were processed

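Messenger RNA was measured in 4 samples on 1-colour Agilent arrays, and the sample titles gave the groups. Agilent Feature Extraction 10.7.3.1 read the images, per the file headers, and the deposited intensity used here is its processed signal, whose 75th percentile differed between arrays (501 to 800). The values of the deposited table are log2: on each array 99.8% of them matched, to within 0.01, the log2 of that signal less a constant, with the 75th percentile of each column at 0 to within 0.01 and column medians of −3.85, −3.98, −3.94 and −3.91 (controls 1 and 2, knock-down 1 and 2). It therefore keeps the direction of the signal and is not centred by probe. Which software made it was not stated in the sources used here. Gene coordinates are left out since the design is on build mm8.

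All 41174 non-control probes matched the table, 24375 with 1 gene name and 16799 with none. Outlier spots were removed, which cost 50 probes that had no other spot on some array. Each member probe had 1 spot, and no spot was saturated. Groups were compared by probe with limma 3.58.1 in R 4.3.3 (lmFit and eBayes, two-sided, Benjamini-Hochberg over all tested probes, threshold 0.05). The method was first tested on simulated data. It recovered 0% of simulated log2 changes of 1, 30.3% of those of 2 and 42.4% of those of 3. Of its 49 calls 1 was false. These rates hold for the simulated data and are not the sensitivity of the fit on the measured data. There limma called 1556 probes, with rises called from log2 0.86 upward. The share of true changes it missed there was not measured. A change of about log2 1 that did not pass is therefore not shown to be absent. Named are Fbl, all members and their probes, Nanog, Gdf3 and Pou5f1, and from each list up to 4 called genes per direction and its 2 brightest genes, Usp17la, Sp110, Usp17lc and other single genes having been added after their values were seen. Members and lists were chosen with earlier results of these data known. Alternatives were the scanner signal, normexp (offset 50, on median signals because the files have no mean signal), quantile normalization, the 75th percentile over bright probes, 2 other filters, trend, trend and robust, 1 probe per gene, the slide or replicate as a block, and leaving out each sample.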

Additional observations from a re-analysis of the deposited data

How the results depend on the processing

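Without 1 sample, probes that rose ranged from 462 to 3020 and those that fell from 224 to 2378, member probes that rose from 0 to 5 (those that fell stayed at 0), and probes of the fixed lists that rose from 2 to 17 and fell from 2 to 24. The member count that rose was 4 without control 1, 5 without control 2, 1 without knock-down 1 and 0 without knock-down 2. The 2 controls differed more than the 2 knock-down samples (SD of the difference over probes 0.51 against 0.31), and with 1 control left the spread comes only from the knock-down samples. Blocking on the slide equals leaving out knock-down 2. These fits, normexp, the fit without knock-down 1 and the replicate block gave every probe the same variance. No change of a Tcstv1, Tcstv3 or Zscan4c tested probe turned its sign in any alternative run. The groups of these probes did not overlap, so leaving out 1 sample could not turn a sign. All alternatives reuse the same samples, so the kept signs add no support.

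Of all probes, 936 rose and 620 fell. With quantile normalization 408 fell, with trend 1006 fell, with trend and robust 1457 rose and 1195 fell, and with the slide as a block 462 rose and 224 fell. With no filter limma called 0 in either direction (3878 probes had an unadjusted p under 0.05), Fbl included (−2.41, adjusted p = 0.0997), and 0 member and 0 list probes. Against the 2 member probes that rose, 1 did with the scanner signal, under normexp, with the percentile over bright probes and with 1 probe per gene, 0 with quantile normalization and with the slide as a block, and 4 in either fit with trend. Over the fixed lists, 4 fell with quantile normalization, 5 when the percentile came from bright probes, 13 under trend and 14 under trend and robust. On the same lists (main counts 4 rose, 8 fell) 8 rose on probes well above background on all arrays, 8 under trend and 9 under trend and robust, while 2 rose and 2 fell with the slide as a block. Dppa3 turned to 0.039 with the slide as a block (without 1 sample, −0.15 to 0.039), Tdpoz1 ranged from −0.21 (without control 2) to 0.71 without 1 sample, and under normexp Rfpl4 to 0.10 and Elf5 to 0.12.

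Samples share a replicate number only: deviations of same-numbered samples correlated at 0.02 over 25078 probes. With the replicate block 1012 probes fell, 1274 rose and 3 member probes rose, Zscan4c (adjusted p = 0.00147) among them. Signal over background limits Zfp352 and the dim probes of Zscan4c, Tcstv1, Tcstv3 and Tdpoz1.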
